A study of Mus musculus with 7 samples.

Results

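The cells described here were those that the authors' deposited metadata place in the cluster named Macrophages_2 of the i4F pancreas, 359, 435 and 15 cells in the 3 libraries i4F 1, i4F 2 and i4F 3. They made up 3.15% of the 25643 cells in the i4F table, out of 58473 cells in all. The members were chosen by that deposited name alone, and no measured value entered the choice, although the authors built the cluster from the expression of these same cells. The study compared the pancreas of mice undergoing reprogramming with that of control mice and of mice with experimental pancreatitis, by droplet single-cell RNA sequencing of 1 library per mouse. All 7 mice were labelled C57BL/6 (C57BL/6J.Ola.Hsd for the i4F line in the methods) and 2 months old. The 3 i4F mice (genotype i4F-B) were heterozygous for an OSKM cassette (the Yamanaka factors Oct4, Sox2, Klf4 and Myc) in the Pparg gene, which doxycycline switches on in all tissues, and for the rtTA transactivator in Rosa26, and drank doxycycline at 1 mg/ml with sucrose for 7 days, so that the cassette was inducible in the blood cells as well as in the pancreas. The 2 WT mice drank the same doxycycline. The 2 caerulein mice were wild type and received the cholecystokinin analogue caerulein at 100 µg/kg in 7 hourly injections on each of 2 days, and their labels name no doxycycline.

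Neutrophils are short-lived phagocytes that are made in the bone marrow and enter injured tissue from the blood. As they mature they fill azurophil, specific and gelatinase granules in that order, and the messenger RNAs of the granule proteins are made mostly at the immature stages. Mature neutrophils hold little RNA, express the chemokine receptor Cxcr2 and the granulocyte colony-stimulating factor receptor Csf3r, and answer inflammatory signals with cytokines such as Cxcl2 and Il1b. In pancreatitis they are among the first immune cells to arrive.

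Although the deposited name is macrophages, the cluster carried the neutrophil markers. S100a9, which with S100a8 forms the antimicrobial complex calprotectin, stood at 48825, 70516 and 122698 CPM (UMIs of the gene scaled to a common total of all genes) in the summed cells of i4F 1, i4F 2 and i4F 3, and S100a8 at 27617, 38123 and 68933 CPM. Retnlg, a secreted resistin-like protein of granulocytes, stood at 10539, 17587 and 5044 CPM, G0s2, an inhibitor of triglyceride breakdown, at 4233, 2826 and 2840 CPM, and the granule protein gene Ngp at 1739, 6393 and 41435 CPM. In the 5 other immune clusters of the i4F table the highest value in any library was 1097 CPM for S100a8, 458 for S100a9, 113 for Retnlg, 23.3 for G0s2 and 89.0 for Ngp, so that none of the 5 markers overlapped between this cluster and the others in any library. These genes helped to form the cluster, and the differences are a description without a test. At least 1 UMI of S100a9 was found in 91.4%, 97.9% and 93.3% of the cells of the 3 libraries. In B lymphocytes of i4F 1, which should lack the gene and had a median of 627 UMIs against 438 in the cluster, it was found in 1.10% of cells.

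**Figure D1:**
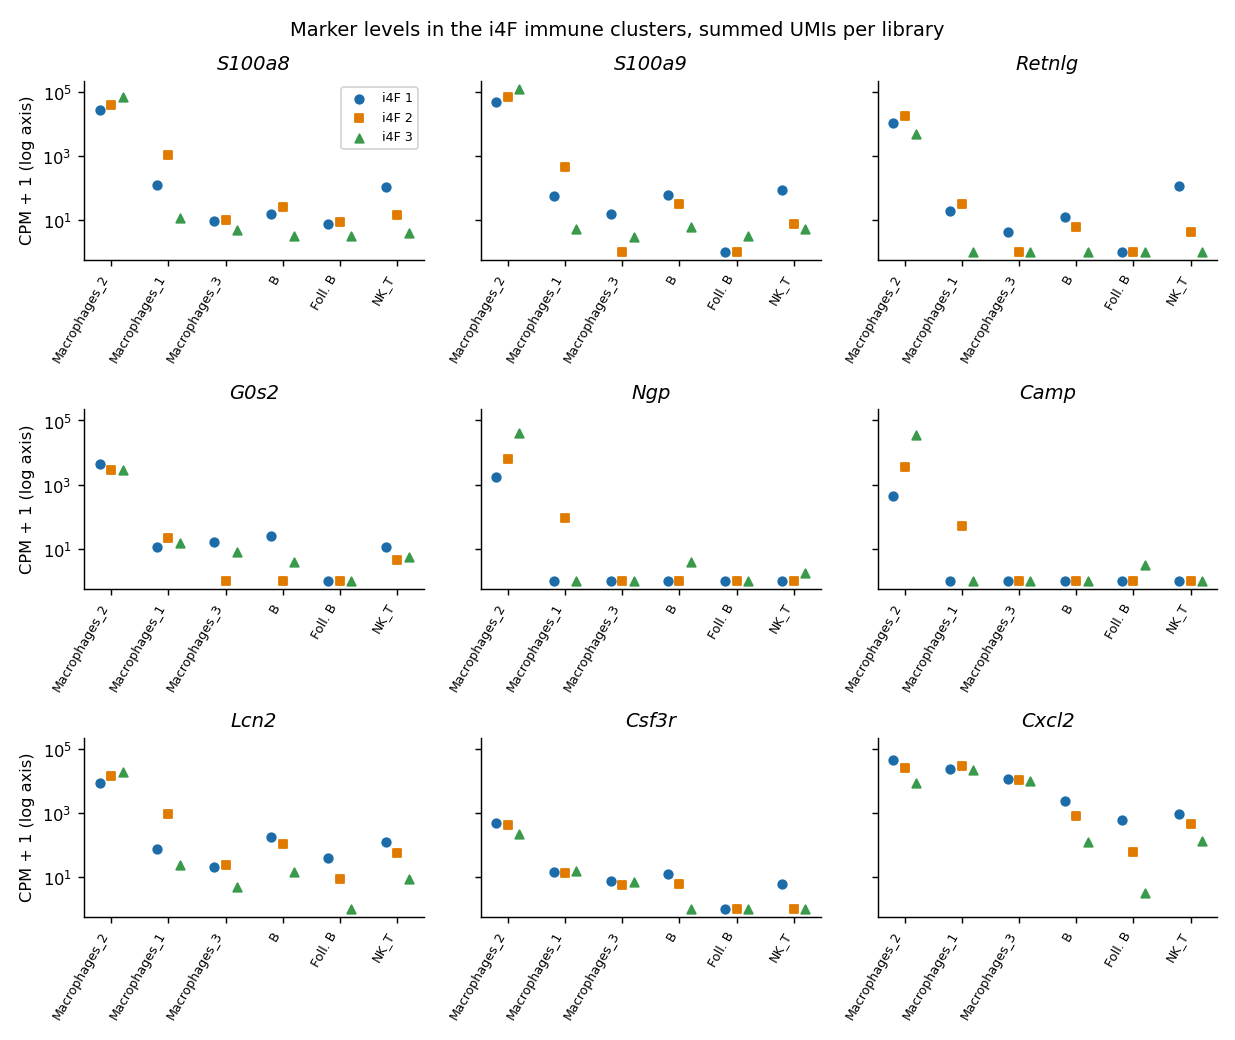
Levels of 9 neutrophil and cytokine genes in each of the 6 immune clusters of the i4F table, as CPM + 1 on a log axis, with 1 point for each library (UMIs summed over the cells of a cluster). Macrophages_2 lies above every other cluster for the 5 markers in all 3 libraries, while for Cxcl2 it lies above Macrophages_1 in i4F 1 and below it in i4F 2 and i4F 3.

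The markers of macrophages were low in the cluster. The summed level of the 10 macrophage genes on the list was 1989, 847 and 299 CPM in the 3 libraries, against 47447, 23333 and 32235 CPM in Macrophages_1, and none of the 10 was at 0. Apoe, the apolipoprotein that macrophages make in bulk, stood at 946, 384 and 187 CPM in the cluster and at 28317, 10712 and 15213 CPM in Macrophages_1. All 5 erythroid genes were at 0, 5 of the 6 natural killer genes were at 0, and the 4 eosinophil genes summed to 28.3, 24.5 and 0 CPM. The 7 ductal genes summed to 1116, 389 and 673 CPM, above the 219, 132 and 615 CPM in Macrophages_1. In i4F 1 and i4F 2 the ductal genes Clu, Krt8, Krt18 and Krt19, all 4 of the list with at least 50 CPM in 1 of the clusters, were more than 2-fold higher than in Macrophages_1 (14.7% of all genes), while in i4F 3 Krt18 was lower, at 74.7 CPM against 179 CPM. The 6 B cell genes summed to 340, 180 and 374 CPM against 68.2, 185 and 391 CPM, with Ighm more than 2-fold higher in i4F 1 and i4F 2. The 6 stellate cell genes summed to 561, 429 and 74.7 CPM against 363, 241 and 113 CPM. Markers of these 3 other types were thus not lower than in Macrophages_1 in i4F 1, and their part in the results below was not tested.

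The cluster was unevenly spread over the 3 mice. It held 359 of 9811 cells in i4F 1 (3.66%, exact 95% interval 3.30 to 4.05%), 435 of 8218 in i4F 2 (5.29%, 4.82 to 5.80%) and 15 of 7614 in i4F 3 (0.197%, 0.110 to 0.325%). The intervals cover the error of counting cells and not differences between mice. Of the immune cells it was 8.62%, 10.96% and 0.530%. On both scales i4F 1 lay below i4F 2 without overlap of their intervals, and i4F 3 was far below both. That mouse also had fewer Macrophages_1 cells (183, against 2921 and 2735) and more B lymphocytes (1290, against 453 and 343). With 15 cells, i4F 3 is given by its values and does not enter the calls below.

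Cells of the cluster were shallower than those of Macrophages_1. The median was 438, 483 and 932 UMIs and 242, 262 and 426 genes per cell, against 3032, 2284 and 2120 UMIs in Macrophages_1 and 627, 467 and 1039 UMIs in B lymphocytes. Only 13, 21 and 4 cells reached 500 genes, which leaves shares of 0.161%, 0.333% and 0.0893% of the cells of that depth. Ribosomal protein genes took a median of 3.61%, 3.68% and 5.42% of a cell's UMIs, below every other immune cluster in each library, whose lowest medians were 8.77%, 5.99% and 6.35%. Mitochondrial genes took 0.789%, 0.962% and 0.645%. S100a8 and S100a9 together made up a median of 5.85%, 8.41% and 14.8% of a cell's UMIs, with a highest value of 33.7%, and 23 cells had no UMI of either. Across libraries, 122 cells of the i4F table shared a barcode with a cell of another library, 3 of them in the cluster. Scrublet marked 2, 3 and 0 of the cluster's cells as doublets, but it marked no cell at all in i4F 3 and has not worked there.

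Granule genes were described by granule type. Macrophages_1, the largest immune cluster, served as reference, and a gene counted as higher or lower where it differed by at least 2-fold in both i4F 1 and i4F 2 after 10 CPM was added, with at least 50 CPM in 1 of the clusters. Of 2920 genes at that level, 428 were higher (14.7%) and 731 lower (25.0%), and the median log2 difference of all of them was -0.45. The genes also made the clusters, so these counts are descriptions. Of the specific granule genes 11 of 13 reached the level, 9 were higher and none was lower, with a median log2 difference of 2.60. Lcn2, which binds bacterial siderophores, stood at 8799, 13845 and 18905 CPM in the cluster and at 71.9, 933 and 22.6 CPM in Macrophages_1. Camp, the cathelicidin antimicrobial peptide, stood at 431, 3526 and 34822 CPM, and the iron-binding lactoferrin gene Ltf at 232, 663 and 9490 CPM. Both genes were lowest in i4F 1 and highest in i4F 3, in contrast with Retnlg. Chil3, a chitinase-like protein that macrophages also make, was not on one side, with 8108 and 6446 CPM in the cluster of i4F 1 and i4F 2 against 1703 and 10725 CPM in Macrophages_1.

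Of the gelatinase and secretory granule genes 3 of 5 at the level were higher and none was lower, against 14.7% higher and 25.0% lower among all genes. The collagenase gene Mmp8 stood at 1337, 1489 and 149 CPM, the gelatinase gene Mmp9 at 504, 663 and 523 CPM, and Pglyrp1, a peptidoglycan recognition protein, at 1054, 1685 and 3363 CPM, against at most 264 CPM in Macrophages_1 for the 3 genes in any library. The azurophil granule genes, made earliest in maturation, were scarce in the summed cells of the cluster. Mpo, the myeloperoxidase gene, had no UMI in the cluster, which at the floor of 3 counts allows up to 17, 12.3 and 112 CPM. Elane, neutrophil elastase, stood at 17.0, 135 and 0 CPM. Of the 3 genes of this list at the minimum level 2 were higher (14.7% of all genes), Elane and the protease inhibitor Serpinb1a.

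A small number of cells held nearly all transcripts of the specific granule genes Ngp, Camp and Ltf. In 17 cells of the cluster these 3 genes made up at least 2% of the UMIs, namely 2 of 359 cells in i4F 1, 11 of 435 in i4F 2 and 4 of 15 in i4F 3, and these 17 cells held 5076 of the 5306 UMIs of the 3 genes in the cluster (95.7%). The limit of 2% was set after the values were seen. The nearest values on its sides were 1.78% and 2.38%, the highest was 17.3%, and 696 cells were at 0. The share of cells with a UMI of Ngp was 3.06%, 18.6% and 26.7%. The i4F table held 19 immune cells of this kind in all, and 0 such cells were found among the WT and the caerulein immune cells, where Ngp has no row in the caerulein table and only Camp and Ltf could count.

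The granule-rich cells differed from the other 792 cells in genes that had not been used to pick them. They were deeper, with a median of 3688, 2049 and 4200 UMIs against 437, 473 and 856 UMIs. Their summed Cxcl2 level was 136, 1751 and 525 CPM in the 3 libraries, against 48340, 27128 and 22845 CPM in the other cells of the cluster. Il1b, the precursor of interleukin 1 beta, stood at 0, 637 and 0 CPM against 11673, 10589 and 10073 CPM, and the chemokine gene Ccl3 at 0, 318 and 0 CPM against 7900, 3756 and 4569 CPM. The summed level of each of these 3 cytokine genes was lower in the granule-rich cells in every library. Single cells overlapped, since 1 granule-rich cell of i4F 2 had 3.52% of its UMIs in the 3 genes, against a median of 3.32% for the cluster in that library. S100a8 ran the other way, at 113356, 93521 and 93843 CPM against 23877, 31777 and 24611 CPM, and so did Lcn2, at 33898, 28534 and 28421 CPM against 7705, 12162 and 1973 CPM. A further 3 genes, chosen after their values were seen, were higher in the granule-rich cells. The transcription factor gene Cebpe, which drives specific granule formation, stood at 407, 438 and 409 CPM against 17.7, 13.7 and 0 CPM, Serpinb1a at 2441, 1472 and 1167 CPM against 23.7, 109 and 104 CPM, and the integrin gene Itgb2l at 271, 318 and 292 CPM against 0 in all 3 libraries. The 2 granule-rich cells of i4F 1 summed to 7375 UMIs and the other 11 cells of i4F 3 to 9630 UMIs. Values of Cebpe and Itgb2l in these sums rest on few counts, and a 0 does not show absence. The proliferation genes Mki67 and Top2a stood at 161 and 242 CPM over all 17 cells and at 60.3 and 7.54 CPM over the other 792. The azurophil genes Elane, Prtn3 and Ms4a3 stood at 725, 625 and 262 CPM over the 17 cells. Over the other 792 they stood at 0, 15.1 and 0 CPM. Elane and Prtn3 were at 0 in the granule-rich cells of i4F 3, and Mpo was at 0 throughout. These are comparisons of cells within a cluster and were not tested, and the difference in depth moves with them.

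**Figure D2:**
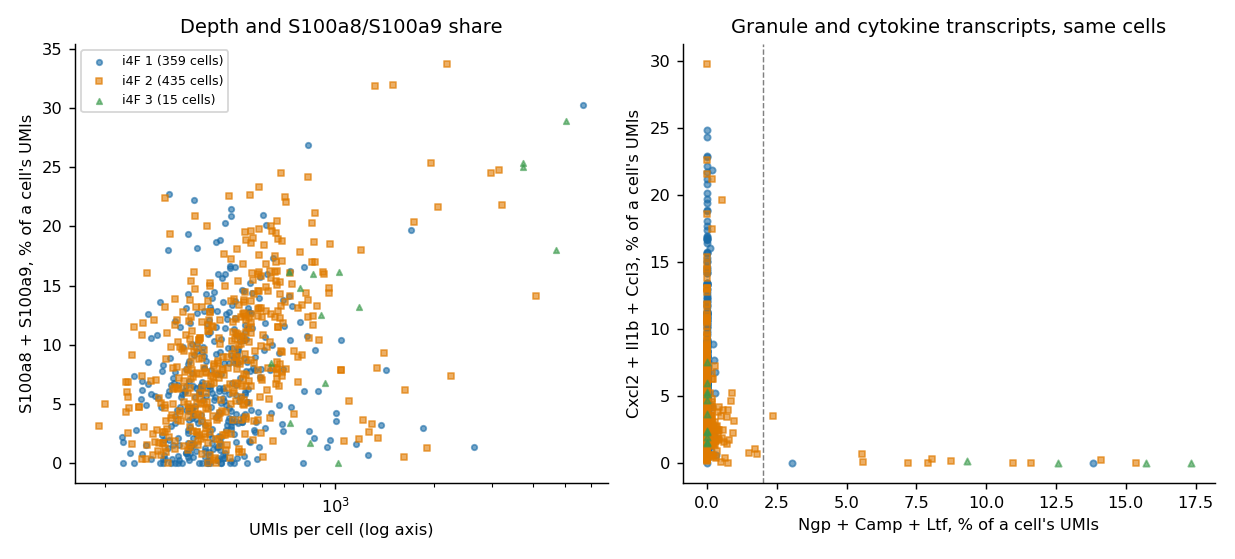
Each point is 1 cell of the cluster, coloured by library. On the left, UMIs per cell (log axis) against the percent of a cell's UMIs from S100a8 and S100a9, and on the right the percent from Ngp, Camp and Ltf against the percent from Cxcl2, Il1b and Ccl3, with a dashed line at 2%. Of the 17 cells right of the line 16 lie under 1% on the cytokine axis and 1 at 3.52%, and most other cells lie at 0 on the granule axis.

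The genes Ngp, Camp and Ltf lie on the same chromosome, at chr9:110419747-110423012 (plus strand), chr9:109847379-109849617 (minus strand) and chr9:111019271-111042767 (plus strand) of GRCm38 in GENCODE vM21, and all are protein-coding. The bases before the start of each, from 250 bases before the RefSeq start (GRCm38.p6) to the first start in either annotation, written 5′ to 3′ on the gene's own strand, are shown because the 3 genes were found in the same few cells, beside those of Retnlg and S100a9, which were also high outside them. Capitals mark matches on either strand to TTGCNNAA, a core of the sites of C/EBP factors, the family of Cebpe.
Ngp (chr9:110419558-110419746, plus strand): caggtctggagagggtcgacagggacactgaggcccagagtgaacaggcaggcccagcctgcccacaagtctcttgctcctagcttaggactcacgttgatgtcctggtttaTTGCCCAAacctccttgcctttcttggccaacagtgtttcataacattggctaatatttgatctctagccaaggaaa
Camp (chr9:109849618-109849706, minus strand): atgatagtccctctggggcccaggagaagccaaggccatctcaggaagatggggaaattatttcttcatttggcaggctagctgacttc
Ltf (chr9:111019042-111019270, plus strand): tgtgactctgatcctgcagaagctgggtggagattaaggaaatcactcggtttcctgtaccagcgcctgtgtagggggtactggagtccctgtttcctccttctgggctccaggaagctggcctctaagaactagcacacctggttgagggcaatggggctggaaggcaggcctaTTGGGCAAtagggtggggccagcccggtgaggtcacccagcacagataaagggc
Retnlg (chr16:48872358-48872607, plus strand): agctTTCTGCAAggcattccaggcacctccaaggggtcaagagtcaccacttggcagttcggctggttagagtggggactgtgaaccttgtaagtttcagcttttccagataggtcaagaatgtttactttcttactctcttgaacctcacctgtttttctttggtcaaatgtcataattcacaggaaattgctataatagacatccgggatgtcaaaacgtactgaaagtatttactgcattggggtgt
S100a9 (chr3:90695722-90695971, minus strand): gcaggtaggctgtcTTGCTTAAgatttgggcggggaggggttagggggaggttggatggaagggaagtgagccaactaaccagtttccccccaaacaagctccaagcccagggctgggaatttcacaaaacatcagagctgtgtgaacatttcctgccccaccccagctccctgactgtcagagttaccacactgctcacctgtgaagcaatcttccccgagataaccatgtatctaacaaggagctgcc

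The last 61, 161 and 21 of the 250 bases lie inside the GENCODE genes of Ngp, Camp and Ltf and are not printed. In the whole windows Ngp held 2 matches, 1 of them in the bases not printed, Ltf, Retnlg and S100a9 held 1 each, and Camp held none. The motif was found in 9.56% of the 32851 promoters in the RefSeq table, and in 4 of the 11 promoters of specific granule genes there. The match is a description of letters and not of binding.

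Genes of mature neutrophils were higher in the cluster almost throughout. Of the 17 genes of this list 16 were higher than in Macrophages_1 (14.7% of all genes) and none was lower (25.0%), with Msrb1 the exception at 1683, 1337 and 2055 CPM against 610, 735 and 432 CPM. Cxcr2, the receptor for CXCL chemokines, stood at 363, 466 and 149 CPM against 0.809, 5.56 and 8.23 CPM, and Csf3r at 476, 417 and 224 CPM against 13.6, 12.2 and 14.4 CPM. Il1r2, a decoy receptor for interleukin 1, stood at 3167, 3342 and 1905 CPM, and Mxd1, an antagonist of Myc-driven transcription, at 2425, 2074 and 822 CPM. Ly6g, the antigen most used to identify mouse neutrophils, was low, at 62.3, 106 and 486 CPM, and a UMI of it was found in 2.51%, 4.37% and 20% of the cells. Stfa2l1, of the stefin A family, stood at 742, 1243 and 336 CPM, and since stefin genes are near-identical copies, counting may have split their reads.

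Receptors for chemoattractants and adhesion followed, with 9 of 14 higher and none lower, against 14.7% higher and 25.0% lower among all genes. The formyl peptide receptor genes Fpr1 and Fpr2 stood at 448, 867 and 299 CPM and at 385, 429 and 112 CPM. The integrin genes Itgam and Itgb2, which encode CD11b and CD18 and are shared with macrophages, lay on neither side, with 289 and 372 CPM of Itgam in i4F 1 and i4F 2 against 541 and 769 CPM in Macrophages_1. Of the 6 genes of the NADPH oxidase, which makes the oxidative burst, Ncf1 and Rac2 were higher (14.7% of all genes) and the membrane subunit genes Cybb and Cyba were on neither side, with Cybb at 300 and 442 CPM against 769 and 837 CPM.

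The cytokine genes lay on both sides. Among the 14 cytokine and chemokine genes 3 were higher and 6 lower, against 14.7% and 25.0% of all genes, and the median log2 difference was -0.37, near that of all genes. Cxcl2, which attracts further neutrophils, was at 46326, 24520 and 8556 CPM in the cluster and at 23254, 29600 and 22708 CPM in Macrophages_1. Il1b was at 11185, 9567 and 3624 CPM against 8849, 10716 and 6218 CPM. Both were abundant in the cluster, and both ranges overlapped with those of Macrophages_1. The higher genes were Ccl3 (7570, 3403 and 1644 CPM), the interleukin 1 receptor antagonist Il1rn (1468, 969 and 112 CPM) and Csf1 (493, 172 and 37.4 CPM), and in i4F 3 neither Ccl3 nor Il1rn lay above Macrophages_1 (2472 and 467 CPM). The sums of i4F 3 include its 4 granule-rich cells. In its other 11 cells Ccl3 stood at 4569 CPM, above Macrophages_1. Cxcl2 and Il1b stood in those 11 cells at 22845 and 10073 CPM, against 22708 and 6218 CPM in Macrophages_1. Cxcl1 was lower, at 1009, 307 and 0 CPM against 3182, 3134 and 1760 CPM. Of 10 NF-kB response genes Icam1, Nfkbiz and Tnfaip3 were higher and none was lower, against the same shares of all genes. Among the libraries, i4F 3 was lowest for Nfkbia (13038, 9481 and 3811 CPM) and Cd14 (9264, 10025 and 2391 CPM), and 4 of its 15 cells were granule-rich. In the other cells of the cluster i4F 3 was lowest as well. Nfkbia stood there at 13565, 10498 and 8100 CPM and Cd14 at 9621, 10895 and 5192 CPM.

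The counts in the following lists are to be read against 14.7% higher and 25.0% lower among all genes. In glycolysis and hypoxia 8 of 18 genes were lower and only the glucose transporter gene Slc2a3 was higher, at 62.3, 49.1 and 187 CPM against 0.809, 0.679 and 2.06 CPM. Of 8 suppressive myeloid genes at the minimum level Arg2 and Cd33 were higher and Arg1 was lower, at 79.3, 61.3 and 0 CPM against 2969, 4214 and 543 CPM. The death receptor gene Fas (238, 270 and 112 CPM against 27.0, 37.1 and 18.5 CPM) and Bcl2a1a were higher among the survival genes, and Bax and Bak1 were lower. Of 12 interferon-stimulated genes 3 were higher and 3 lower, near the shares among all genes. Of the 6 S100 genes S100a8, S100a9 and S100a11 were higher and S100a4 and S100a10 lower. Among granulocyte transcription factors Klf2 and Cebpd were higher, Irf8, which steers progenitors to the monocyte fate, was lower (0, 4.09 and 0 CPM against 81.5, 74.2 and 150 CPM), and Gfi1 and Cebpa had no UMI in the cluster. Heat shock genes gave 3 lower and none higher of 6. Of the proliferation genes Hmgb2 was higher and Tubb5 lower among 5.

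By the rule for naming genes, the largest smaller-of-both-libraries differences upward belonged to Retnlg, S100a9, Asprv1, G0s2, Stfa2l1, Ngp, Gm5483, Hdc, Pglyrp1, Camp, Chil1 and S100a8, from 8.58 for Retnlg to 5.11 for S100a8 on the log2 scale with 10 CPM added. Asprv1, a retroviral-like protease gene, stood at 1235 and 1399 CPM against 1.82 and 2.71 CPM, and Hdc, the histamine-forming histidine decarboxylase, at 2612 and 2168 CPM, which was 6.52 and 5.77 above Macrophages_1 on that scale. The largest downward were Arg1, Apoe, C1qa, Fn1, C1qc, C3ar1, Fcgr1, Ms4a4c, Ms4a6c, Lgmn, C1qb and Msr1, from -5.06 for Arg1 to -3.94 for Msr1. All 10 genes of the macrophage list and 5 of 7 of the monocyte list were lower, against 25.0% of all genes. C1qa, which starts the classical complement cascade, stood at 238 and 77.7 CPM in the cluster and at 5925 and 3385 CPM in Macrophages_1.

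**Figure D3:**
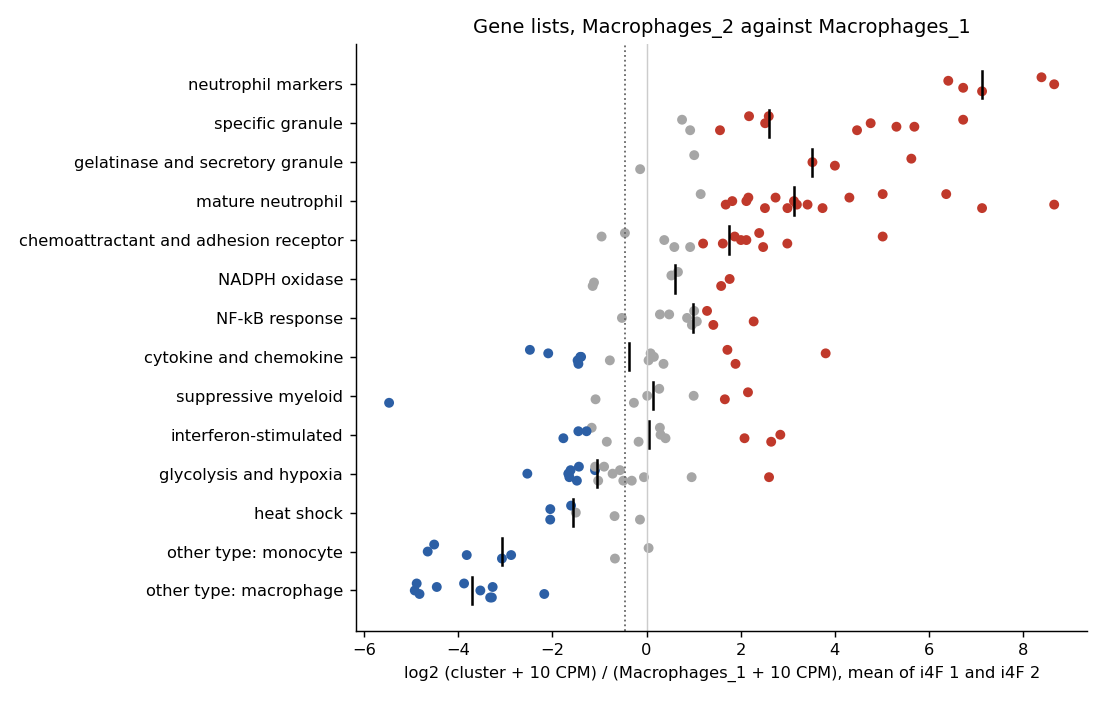
Mean log2 difference of Macrophages_2 from Macrophages_1 over i4F 1 and i4F 2, with 10 CPM added, for the genes of 14 lists at 50 CPM or more. Red genes were at least 2-fold higher and blue genes at least 2-fold lower in both libraries, grey genes neither, black bars are list medians, and the dotted line is the median of all 2920 genes (-0.45). Neutrophil lists lie to the right and the macrophage and monocyte lists to the left, and cytokines are spread on both sides.

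Neutrophil-like cells of the reprogramming pancreas were then compared with those of the caerulein pancreas. The 2 groups also differ in genotype, in doxycycline with sucrose and in the time of harvest given in the methods. These differences cannot be told apart from the kind of tissue injury. Since each table was clustered by itself, cells were taken by 1 rule in both, namely cells of any immune cluster with S100a8 and S100a9 at 2% or more of their UMIs and at least 1 UMI of Retnlg, G0s2 or Ngp. Ngp has no row in the caerulein table and could count only in the others, where 3 i4F cells passed through Ngp alone. The rule found 230, 340 and 13 cells in i4F 1, 2 and 3 (2.34%, 4.14% and 0.171% of cells), 322 and 44 cells in caerulein 1 and 2 (2.13% and 0.625%), and 3 and 1 cells in WT 1 and 2 (0.0693% and 0.0158%). The shares of i4F and caerulein libraries overlapped. The i4F cells included 565 cells of the cluster, where 244 other cells did not meet the rule, and 18 came from Macrophages_1, 17 of them in i4F 2. All but 1 of the caerulein cells lay in a cluster that the authors named Macrophages_3 there. The last share under 2% was 1.99% and the first at it 2.03%.

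UMIs were summed per library, and the libraries i4F 1, i4F 2, caerulein 1 and caerulein 2, each with at least 20 such cells, were compared by edgeR's quasi-likelihood test with Benjamini-Hochberg adjustment, without the 5 marker genes. The sums held 121265, 243307, 125458 and 13169 UMIs, so that caerulein 2 carried the least information. Of 1517 genes tested 41 were higher in i4F (2.70%) and 21 lower (1.38%), with a median log2 fold change of 0.06. Without the TMM scaling 43 were higher and 37 lower. The library series named in the labels differ too, AL for the i4F and AM for the caerulein libraries, and condition and series cannot be told apart. Each mouse gave 1 library, and p-values measure the spread between these 4 mice.

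Several specific granule genes differed between the i4F and the caerulein cells. Of the 13 genes of this list Ngp had served to pick the cells and 9 were tested, of which 7 were called higher (2.70% of all genes) and none lower. Chil3, Camp, Ltf and Cd177 had 6, 1, 2 and 1 UMIs in caerulein 1 and none in caerulein 2, so that they passed the filter on low counts through the i4F libraries, and nothing is read from the number of members called or from their shared direction. Chil3 stood at 7760 and 8409 CPM in i4F 1 and i4F 2, at 4626 CPM in i4F 3 and at 47.8 and 0 CPM in the caerulein libraries. Both fitted i4F values lay far above both caerulein values, with a log2 fold change of 7.65 (SE 0.60, edgeR adjusted p = 2.3e-11, higher in 2 of 2 libraries). The i4F 3 value, outside the fit, leaned on its 4 granule-rich cells. Chil3 stood at 6420 CPM in them and at 208 CPM in the other 11 cluster cells of i4F 3. In the other immune cells of the same libraries Chil3 stood at 1550 and 9566 CPM (i4F 1 and 2) and at 479 and 623 CPM (caerulein 1 and 2). Camp stood at 627 and 4985 CPM in i4F 1 and i4F 2, with 39194 CPM in i4F 3, and at 7.97 and 0 CPM in caerulein (log2 fold change 8.53, SE 1.05, edgeR adjusted p = 9.7e-07). Its caerulein value was a single UMI against 1289 in i4F 1 and i4F 2, a ratio of 490 with a counting interval of 87.8 to 19374. That interval treats UMIs as independent and leaves out the spread between cells. In the cluster 75 of 76 Camp UMIs of i4F 1 lay in 2 granule-rich cells, and 858 of 862 of i4F 2 in 11. The fitted groups did not overlap for Chil3 and Camp, as the rule for naming genes required. Ltf stood at 322 and 912 CPM against 15.9 and 0 CPM (log2 fold change 5.46, SE 0.81, edgeR adjusted p = 1.9e-05), with 10682 CPM in i4F 3. Its groups did not overlap either, again as that rule required. All UMIs of Camp and Ltf in the cluster cells of i4F 3 lay in the 4 granule-rich cells.

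Lcn2, of which 81.1%, 90.3% and 73.3% of the cluster's cells carried a UMI, stood at 10399 and 14299 CPM in i4F 1 and i4F 2, at 21195 CPM in i4F 3 and at 1283 and 2886 CPM in caerulein. Every i4F library was above both caerulein libraries (log2 fold change 2.80, SE 0.40, edgeR adjusted p = 1.2e-05). The i4F 3 value, outside the fit, leaned on its 4 granule-rich cells, where Lcn2 stood at 28421 CPM. In the other 11 cluster cells of i4F 3 Lcn2 stood at 1973 CPM, below caerulein 2. Wfdc21, a small secreted granule protein gene, was 1691 and 2519 CPM against 175 and 532 CPM, Cd177, a surface glycoprotein of neutrophils, 115 and 214 CPM against 7.97 and 0 CPM, and Ifitm6 528 and 1459 CPM against 79.7 and 456 CPM. In the other immune cells of these libraries Lcn2 stood at 98.7 and 830 CPM against 25.6 and 36.7 CPM. Wfdc21 stood there at 19.7 and 188 CPM against 3.44 and 9.44 CPM, and Ifitm6 at 123 and 401 CPM against 27.2 and 18.9 CPM. Cd177 overlapped there, at 5.38 and 23.4 CPM against 6.64 and 5.77 CPM. The remaining genes of the list, Anxa1 and Hp, did not pass, with log2 fold changes of 1.44 (SE 0.49) and 1.07 (SE 0.42) and edgeR adjusted p = 0.098 and 0.16. When the granule-rich cells were left out, Chil3 had a log2 fold change of 7.42 (edgeR adjusted p = 1.9e-07) while Camp, Ltf, Cd177 and Serpinb1a had too few UMIs to be tested. That fit again did not include i4F 3, which had 9 marker cells left. Of the 7 called specific granule genes, Chil3, Lcn2 and Wfdc21 were called again without these cells and Ifitm6 was not (edgeR adjusted p = 0.058). Over all cells of the authors' clusters Chil3 had a log2 fold change of 5.53 (edgeR adjusted p = 0.013).

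Of 5 gelatinase and secretory granule genes only Mmp8 was called, higher in i4F, against 2.70% higher and 1.38% lower among all genes tested. Mmp8 stood at 1616 and 1480 CPM in i4F 1 and i4F 2 and 168 CPM in i4F 3 against 55.8 and 152 CPM in caerulein. The first pair lay above both caerulein libraries, as the rule for naming genes required, while i4F 3, with 4 UMIs, lay close to caerulein 2 (log2 fold change 4.57, SE 0.60, edgeR adjusted p = 2.5e-06). Mmp9 ran lower, at 470 and 633 CPM against 1594 and 911 CPM, and did not pass (log2 fold change -1.16, SE 0.43, edgeR adjusted p = 0.13). Serpinb1a, the only azurophil list gene tested, stood at 173 and 300 CPM against 23.9 and 0 CPM (log2 fold change 3.55, SE 0.70, edgeR adjusted p = 0.0011). With 3 UMIs in caerulein 1 and none in caerulein 2, Serpinb1a passed the filter on low counts through the i4F libraries.

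Most genes of the mature state and of the inflammatory response were not called. Of 14 mature neutrophil genes 2 were called higher, Stfa2l1 and Slfn4, and none lower, against 2.70% higher and 1.38% lower among all genes tested, and of 14 receptor genes, 6 NADPH oxidase genes and 10 NF-kB response genes none was called in either direction. Cxcr2 stood at 355 and 382 CPM in i4F against 494 and 532 CPM in caerulein (log2 fold change -0.34, SE 0.42, edgeR adjusted p = 0.77). Csf3r stood at 487 and 316 CPM against 861 and 1215 CPM (log2 fold change -1.19, SE 0.43, edgeR adjusted p = 0.12). Both receptors were thus lower in each i4F library than in each caerulein library, without passing the test. Of 13 cytokine and chemokine genes 1 was called, Csf1, a growth factor for macrophages, which was lower in i4F (396 and 86.3 CPM against 797 and 683 CPM, log2 fold change -1.67, SE 0.50, edgeR adjusted p = 0.049). With the i4F cells taken as those of the cluster, Csf1 was not called (log2 fold change -1.08, edgeR adjusted p = 0.23). Cxcl2 stood at 39344 and 23509 CPM against 48534 and 58091 CPM (log2 fold change -0.64, SE 0.28, edgeR adjusted p = 0.23), and Il1b at 10217 and 9478 CPM against 15097 and 17769 CPM (log2 fold change -0.61, SE 0.31, edgeR adjusted p = 0.34). Both cytokines were lower in each i4F library than in each caerulein library. How often all genes separate in this way was not counted, so nothing is read from it for these cytokines or the receptors above. A test that is not passed does not show that the levels were equal.

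Among 10 interferon-stimulated genes tested Irf7 and Rsad2 were called higher and none lower, against 2.70% and 1.38% of all genes. Irf7 and Rsad2 passed the filter on low counts through the i4F libraries, and nothing is read from the number called or its direction. Irf7, the transcription factor that amplifies the interferon response, stood at 140 and 259 CPM against 47.8 and 75.9 CPM (log2 fold change 2.10, SE 0.59, edgeR adjusted p = 0.036). Of its UMIs in i4F 2, 41 came from cells of the cluster and 22 from the marker cells of Macrophages_1, and with the i4F cells of the cluster alone Irf7 was not called (edgeR adjusted p = 0.095) while Rsad2 was (edgeR adjusted p = 0.018). Rsad2, an antiviral enzyme, stood at 198 and 279 CPM against 63.8 and 0 CPM. In the other immune cells Irf7 was higher in i4F as well, at 253 and 560 CPM against 35.1 and 30.1 CPM, and so was Rsad2, at 198 and 180 CPM against 51.4 and 63.5 CPM. No gene was called in glycolysis and hypoxia (11 tested), survival (10), granulocyte transcription factors (5), proliferation (3), S100 genes (3) or heat shock (3).

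Several called genes belong to other cell types, and their levels moved with those of other cells. Arg1, an enzyme of alternatively activated macrophages and the only one of 8 suppressive myeloid genes called, stood at 157 and 575 CPM in i4F 1 and i4F 2 against 0 in both caerulein libraries and in i4F 3 (edgeR adjusted p = 6.0e-05), and against the floor of 3 counts over the group it was at least 20.2-fold higher. Of its UMIs, however, 10 of 19 in i4F 1 and 127 of 140 in i4F 2 came from the 18 marker cells of Macrophages_1, whose median was 3669 and 2435 UMIs, and in the cells of the cluster alone Arg1 was too low to be tested. Sdc4 and F13a1, likewise called higher, had 37 of 46 and 41 of 51 UMIs of i4F 2 in those 17 cells. The monocyte genes Ly6c2, Plac8 and F13a1 were called higher (2.70% of all genes), but with 5, 14 and 3 UMIs in caerulein 1 and none in caerulein 2 they passed the filter on low counts through the i4F libraries. The genes Ly6c2 and Plac8 were also called when the i4F cells were those of the cluster (edgeR adjusted p = 0.038 and 0.029). In the other immune cells of the same libraries Plac8 stood at 418 and 779 CPM in i4F against 130 and 146 CPM in caerulein, and Ly6c2 at 74.6 and 370 CPM against 20.5 and 25.7 CPM. Plac8 was also higher in the non-immune cells, at 527 and 742 CPM against 322 and 388 CPM. The immunoglobulin gene Igkc and the Reg family genes, which injured acinar cells secrete, were higher as well. Reg3a stood at 379 and 514 CPM against 23.9 and 75.9 CPM in the marker cells, and at 486 and 1131 CPM against 50.4 and 83.4 CPM in the non-immune cells of the same libraries. Igkc stood at 157 and 119 CPM against 7.97 and 0 CPM, and at 5889 and 6607 CPM against 432 and 14.9 CPM in the other immune cells. The part of such RNA in the marker cells was not tested.

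The lower genes were led by genes with the same trait. 1810009J06Rik and Gm2663, trypsinogen-like genes of the exocrine pancreas, stood at 0 and 4.11 CPM and at 8.25 and 12.3 CPM in i4F against 343 and 152 CPM and 1100 and 228 CPM in caerulein. In non-immune cells Gm2663 stood at 13.8 and 74.3 CPM in i4F and at 2281 and 2152 CPM in caerulein. Clu, a ductal marker here, stood at 536 and 136 CPM against 2367 and 1443 CPM, and at 1811 and 1596 CPM against 8329 and 12090 CPM in the non-immune cells. Nupr1, a stress-induced nuclear protein, moved in the same way. For Lst1, Clec7a and Gngt2 the non-immune cells of these libraries reached at most 57.6 CPM. The other immune cells moved in the same direction for Lst1, at 78.2 and 41.2 CPM in i4F against 310 and 240 CPM in caerulein, and for Gngt2, at 170 and 96.2 CPM against 268 and 305 CPM. Lst1, a leukocyte-specific transcript, stood at 124 and 90.4 CPM against 988 and 380 CPM (log2 fold change -2.84, SE 0.46, edgeR adjusted p = 7.4e-05), and at most 18.8 CPM in the non-immune cells of these libraries. Clec7a, the receptor dectin-1 for fungal glucans, stood at 330 and 123 CPM against 821 and 1063 CPM (log2 fold change -1.95, SE 0.46, edgeR adjusted p = 0.0083). Gngt2, a G protein subunit, stood at 124 and 45.2 CPM against 678 and 532 CPM (log2 fold change -2.95, SE 0.48, edgeR adjusted p = 7.4e-05). For each of these 3 genes both i4F libraries lay below both caerulein libraries, as the rule for naming genes required. Gm34084, Creg1 and Igfbp6 completed the named lower genes, with log2 fold changes of -3.86, -2.73 and -2.03.

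**Figure D4:**
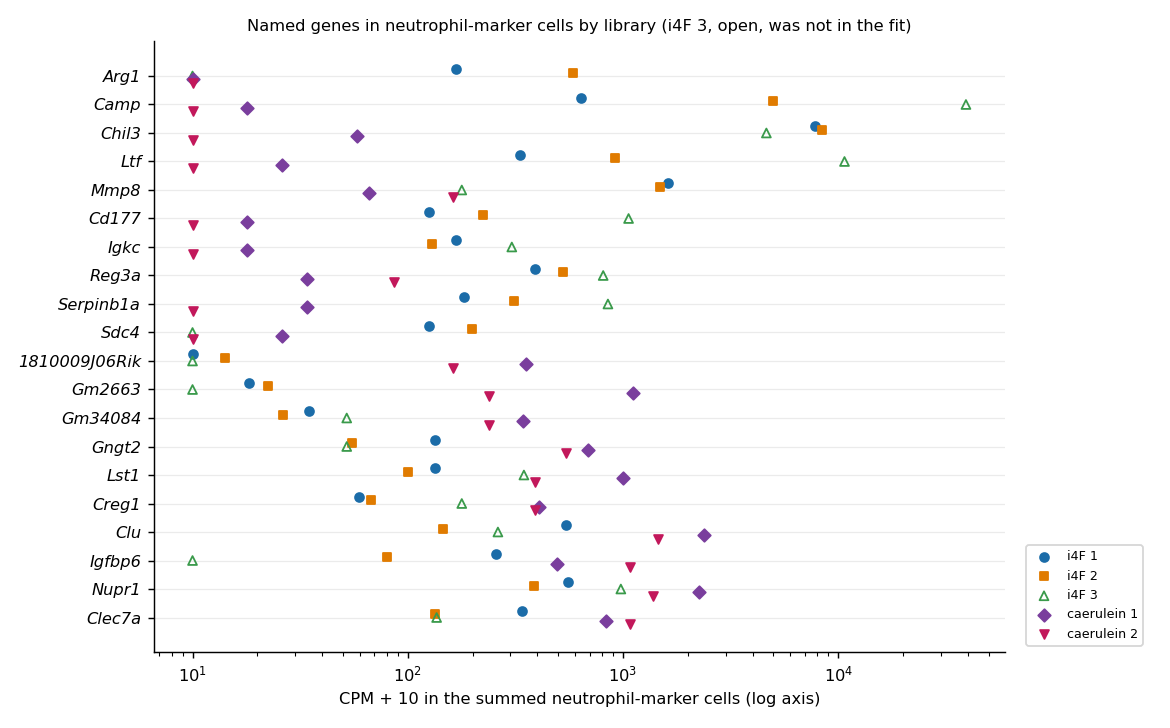
CPM + 10 (log axis) of the 20 genes named by rule in the summed neutrophil-marker cells of each library, in the order of their fold changes. Filled circles and squares are i4F 1 and i4F 2, diamonds and downward triangles are the caerulein libraries, and open triangles are i4F 3, which was not in the fit. For the 10 upper genes both fitted i4F libraries lie right of both caerulein libraries, and for the 10 lower genes left of them, as the rule required.

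Leaving out i4F 2 left 9 genes called higher and 4 lower, and leaving out caerulein 1 gave 13 and 5, of which 13 genes in all were among the 62 called. Without i4F 2 Cd177, Serpinb1a, Arg1, Sdc4, Igkc, Lst1, Gngt2 and Clec7a were among the named genes no longer called. Of the 62 called genes 7 were called without each of the 4 libraries in turn, namely Lcn2, Wfdc21, Mmp8, Camp, Chil3 and Ltf of the granule lists and Saa3, an acute-phase serum amyloid gene named after its values were seen (1187 and 1249 CPM against 239 and 75.9 CPM). For Camp, Chil3 and Ltf, caerulein 2 held no UMI, so that without caerulein 1 no UMI was left on the caerulein side and that call says nothing of stability. Saa3 was also high in the other immune cells, at 1413 and 3086 CPM in i4F 1 and i4F 2 against 407 and 419 CPM.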

How the data were processed

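Single cells of the pancreas of 7 mice were sequenced as droplet 3′ libraries. According to the methods, the authors aligned the reads to GRCm38 (mm10) with Cell Ranger, loaded them into Seurat, corrected ambient RNA with SoupX, removed cells with few genes or many mitochondrial reads, and clustered each condition by itself. The deposited tables hold whole-number UMI counts per gene and cell, which were checked to sum to each cell's deposited total, and whether they precede the SoupX step is not given in the sources used here. The deposited metadata give the library and cluster name of each cell and the percent of UMIs on mitochondrial genes computed by the authors. Libraries held 15469018 to 64784216 UMIs.

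UMIs were summed per cluster and library and scaled to CPM. Shares carry exact (Clopper-Pearson) 95% intervals, and intervals and floors of 3 counts cover counting error only. Clusters were not tested against each other. For i4F against caerulein, UMIs of the 27531 genes listed in both tables were summed over neutrophil-marker cells and tested with edgeR 4.0.16 (TMM, filterByExpr, quasi-likelihood test, adjusted p under 0.05), which was tested on simulated data. The fit was repeated with DESeq2 1.42.0, without TMM or the filter, with the replicate number as a block, with other rules for the cells, without doublets (Scrublet, scanpy 1.11.5) and without each library. Named genes were list genes, the 12 per direction with the largest smaller difference from Macrophages_1, and the 10 per direction with the largest fold change against caerulein among genes called, at 100 CPM or more and without overlap. The cells, lists and tests were chosen with earlier results of these data known. None of the 14 acinar genes on the marker list has a row in the tables used here. In i4F 1 and i4F 2 no T cell, endothelial or mast cell marker of the lists reached 50 CPM in the cluster or Macrophages_1, and in i4F 3 the mast cell gene Gata2 stood at 149 CPM (4 UMIs) in the cluster.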

Additional observations from a re-analysis of the deposited data

Results flagged for a closer look

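The library i4F 3 held 13 neutrophil-marker cells and was not part of the fit. For 8 of the 10 genes named as higher in i4F, its level lay above both caerulein libraries and above 3 UMIs, which made these values worth a look, and no test was made of them. The share of all tested genes above caerulein in this library was not counted, and nothing is read from the 8. Camp, Cd177 and Igkc had 1 UMI and Ltf 2 in the caerulein libraries together, so a level above them is easily reached. When i4F 3 was added to the fit, 7 of the genes named by rule against caerulein stayed called and 13 did not. Camp stood at 39194 CPM, Ltf at 10682, Chil3 at 4626, Cd177 at 1051, Serpinb1a at 841, Reg3a at 799, Igkc at 294 and Mmp8 at 168 CPM. The Mmp8 value rests on 4 UMIs and the Igkc value on 7. Arg1 and Sdc4 had no UMI in the marker cells of i4F 3. All UMIs of Camp and Ltf in the cluster cells of i4F 3 lay in its 4 granule-rich cells. Chil3, Cd177 and Serpinb1a stood at 6420, 1459 and 1167 CPM in these 4 cells. They stood at 208, 0 and 104 CPM in the other 11 cluster cells of i4F 3.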

How the results depend on the processing

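The shares of the cluster were 0.161%, 0.333% and 0.0893% among cells with at least 500 genes and 8.62%, 10.96% and 0.530% of the immune cells, all outside the intervals of the shares of all cells. In the former 13, 21 and 4 cells of the cluster remained. Against Macrophages_1, 239 genes were higher and 371 lower with a pseudocount of 50 CPM, 590 and 1154 without the filter on low levels (22236 genes), and 378 lower among cells with at least 500 genes. Leaving out i4F 1 or i4F 2 gave 520 to 611 higher and 956 to 981 lower. TMM scaling moved the median of all genes from -0.45 to -0.62 and gave 372 higher and 833 lower. Camp was at -0.18 on the log2 scale once the granule-rich cells of the cluster were left out. The rest of the cluster held 5.91 and 18.2 CPM of Camp in i4F 1 and i4F 2. Macrophages_1, from which no cell was left out, held 0 and 48.0 CPM, with 352 UMIs in its 17 marker cells of i4F 2. No other gene named by rule against Macrophages_1 changed direction.

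For i4F against caerulein the counts of genes higher and lower were 11 and 8 with DESeq2, 43 and 37 without TMM, 19 and 8 without the filter (11833 genes), 20 and 10 with the replicate number as a block, 5 and 4 with libraries of at least 5 cells, which adds i4F 3, 21 and 7 at a marker share of 1%, 14 and 4 at 5%, 19 and 10 without cells holding a UMI of C1q or Apoe, and 57 and 32 for cells with at least 300 UMIs, where 1 caerulein library remained. Chosen after seeing the data, the authors' clusters gave 13 and 5 and the cells without the granule-rich ones 24 and 12. Leaving out 1 library gave 9 to 77 higher and 4 to 45 lower, the highest without caerulein 2 and the lowest without i4F 2, and without i4F 1 it was 42 and 22. A lone library in a group was assumed to vary like the others. Apart from Camp in the first comparison, no gene named by rule changed sign. Of 320 values for genes named by rule against caerulein, 68 missed the threshold. Fits in which a named gene had too few UMIs to be tested, such as Camp without the granule-rich cells, are not among the 320. Same-numbered libraries did not deviate together (r = -0.06 for the 1 independent pair, across 1521 genes, which are not independent), so the block rests on a shared number alone.

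With 44 marker cells and 13169 UMIs in caerulein 2, a gene at 76 CPM there is 1 UMI, and low genes could not be compared. Fewer cells of a type and less RNA per cell cannot be told apart in the summed levels, and whether neutrophils were lost in dissociation was not measured.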
